A study of Rattus norvegicus with 20 samples.

Results

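The genes described here are 4 cytosolic glutathione transferases (Gstm1, Gstm2, Gstm5 and Gsta4), the membrane-bound transferase Mgst1, the quinone reductase Nqo1 and the heme oxygenase Hmox1. They are a listed set of 7 of the 14506 gene symbols that had a probe set of their own on the rat arrays. The set was chosen with earlier results of these data known. Counts of these genes set beside shares of all probe sets are therefore descriptions and do not measure chance. Each gene was read from the probe set whose only symbol in the platform annotation was that gene, taking the highest mean over the 20 arrays where a symbol had several. All 7 were measured, and Gsta4 alone had a second probe set.

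Cultures of epithelial cells were started from 5 tissues (trachea, esophagus, oral mucosa, vagina and footpad) of a Sprague-Dawley rat line with a transgene for the enhanced green fluorescent protein (EGFP) under an actin promoter, from animals of postnatal day 200. For each tissue, 2 arrays held cultured cells before transplantation. A further 2 arrays held cells that had been injected into newborn mouse skin grafted on athymic mice, dissociated from the grafts after a first transplantation and cultured again. All cultures, at both stages, had a feeder layer of irradiated 3T3-J2 fibroblasts, which are mouse cells, and were sorted for EGFP, and 100 ng of RNA was labeled per array. The sort selects against mouse cells, which lack the transgene, but its purity for these arrays is not given in the study's text. It keeps any rat cell type, because the transgene is active in rat cells in general. The study describes the 2 arrays of a group as duplicate cultures and as biological replicates, and does not say whether they came from separate animals or grafts. The p-values below therefore measure the spread between duplicate cultures, except for the mean response over tissues, whose error is the spread between tissues. Sample titles also carry Roman numerals, which went from V to I in trachea, from V to III in oral mucosa and esophagus and from IV to III in footpad and were IV at both stages in vagina. The labels do not explain them, but passages are written with such numerals in the study's methods. If they are passages, the stages also differed in passage in 4 of the 5 tissues. Titles after transplantation carry the code RC5 for oral mucosa and vagina and RC4 for the other 3 tissues. This code is not explained. The part of numerals and code in a change cannot be told apart from that of the graft and the tissue.

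Glutathione transferases join the thiol glutathione to reactive electrophiles such as lipid aldehydes and epoxides, which makes them soluble and ready for export. Many of their genes, with Nqo1 and Hmox1, belong to the oxidant response, in which the transcription factor NRF2 (gene Nfe2l2) escapes its inhibitor KEAP1 and binds antioxidant response elements near its targets. In squamous epithelia and airways this system handles chemicals, light and oxygen at the body's surface.

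The 3 mu-class genes lie in 1 cluster of 9 neighbouring Gstm genes on chromosome 2 in the RefSeq gene order, with Gstm5 at one end and Gstm2 next to Gstm1 near the other. Because these neighbours moved apart from each other, and Nqo1 moved beside Gstm5, the 250 bases before the annotated start of these 4 genes are shown 5′ to 3′ on the gene's own strand, from RefSeq (assembly GRCr8). Capitals mark matches to 4 motifs, namely the antioxidant response element core TGACNNNGC, the AP-1 site TGACTCA and the xenobiotic response element core GCGTG (all on both strands) and the TATA box core TATAAA (gene's strand).
Gstm1 (chr2:198343384-198343633, minus strand): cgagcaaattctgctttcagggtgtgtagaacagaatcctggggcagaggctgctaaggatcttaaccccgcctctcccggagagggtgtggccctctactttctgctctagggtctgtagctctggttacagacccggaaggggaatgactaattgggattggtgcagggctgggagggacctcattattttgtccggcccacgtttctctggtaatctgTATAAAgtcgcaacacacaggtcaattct
Gstm2 (chr2:198316918-198317167, minus strand): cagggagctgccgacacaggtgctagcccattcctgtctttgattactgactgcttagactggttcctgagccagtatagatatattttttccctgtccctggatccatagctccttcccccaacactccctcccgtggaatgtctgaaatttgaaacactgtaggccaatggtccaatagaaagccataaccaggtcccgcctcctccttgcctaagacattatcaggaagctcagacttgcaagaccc
Gstm5 (chr2:198219519-198219768, plus strand): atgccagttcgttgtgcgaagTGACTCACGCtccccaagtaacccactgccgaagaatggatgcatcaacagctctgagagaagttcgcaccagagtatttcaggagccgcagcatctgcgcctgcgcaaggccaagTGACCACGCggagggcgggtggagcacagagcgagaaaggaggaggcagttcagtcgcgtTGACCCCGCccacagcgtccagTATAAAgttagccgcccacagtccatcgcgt
Nqo1 (chr19:52220268-52220517, minus strand): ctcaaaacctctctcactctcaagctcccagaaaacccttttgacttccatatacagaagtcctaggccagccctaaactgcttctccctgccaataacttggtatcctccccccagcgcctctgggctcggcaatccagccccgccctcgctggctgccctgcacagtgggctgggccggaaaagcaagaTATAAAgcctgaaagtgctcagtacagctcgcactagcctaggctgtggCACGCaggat
The Gstm5 window held 2 antioxidant response element cores, starting at −113 and −53 from the annotated start. It also held 1 AP-1 site at −229 and 2 xenobiotic response element cores at −224 and −109. The first of these overlaps the end of the AP-1 site, and the second lies inside the first antioxidant core. Of 33469 RefSeq promoter windows of this length, 10.1% held at least 1 antioxidant core and 0.627% held 2 or more, while 4.05% held the AP-1 site and 25.9% the xenobiotic core. TATA box cores stood at −31 in Gstm5, −29 in Gstm1 and −59 in Nqo1, against 8.06% of windows. The xenobiotic core was also found once in Nqo1, at −10, and 3 times in Gsta4. Windows were matched for 6 of the 7 genes (all but Hmox1), and those of Gstm2 and Mgst1 held none of the 4 motifs. A match is a description of letters and no binding was measured, and a window with no match says only that these letters are not in it.

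Levels are log2 values from the authors' normalization (RMA), on which a difference of 1 is a 2-fold difference. A gene is called higher or lower, and said to rise or fall, at an adjusted p from limma under 0.05 over all 29215 probe sets together with a fold over 2. Duplicates correlated with r between 0.991 and 0.996. Of 6 basal epithelial markers, 5 were called in no tissue, with Krt14 between 13.05 and 13.33 in all groups, and the surface protein gene Epcam rose in footpad from 7.77 to 10.76.

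Some markers of the labelled tissues moved with the stage, while 0 of 5 trachea markers were called in trachea. All 4 markers of oral and esophageal mucosa (Krt4, Krt13, Sprr3 and Mal) fell in oral mucosa and in vagina and 3 of the 4 fell in esophagus, while 1 rose in footpad and 1 in trachea. In oral mucosa Krt4 went from 11.96 to 5.33 and Krt13 from 13.04 to 9.34. In vagina 3 of 5 markers of that tissue fell, among them Pax8 (7.53 to 4.73) and Esr1 (6.71 to 4.94), and Hoxd13 rose from 4.75 to 6.58, against 4.53 to 4.67 in the other tissues after transplantation. Of 3 footpad markers Krt1 rose in footpad, from 6.56 to 8.73. Krt8, a keratin of simple epithelia, read 11.61 and 10.61 in trachea and 10.61 in vagina before, lay between 6.68 and 9.17 in the other groups, and fell in vagina and oral mucosa. In trachea the airway factor Nkx2-1 read 6.71 and 6.67 against 5.56 to 6.45 elsewhere, while the club cell gene Scgb1a1 read 4.12 or less in every group. The summed level of 10 fibroblast markers moved with the stage. It went from 11.28 and 11.45 to 9.81 and 9.84 in vagina, from 11.59 and 11.68 to 10.45 and 10.49 in footpad and from 11.41 and 11.55 to 9.82 and 9.91 in trachea. In esophagus it lay between 8.99 and 9.46, and in oral mucosa it went from 8.99 and 9.04 to 11.74 and 11.84, where Vim alone of the list rose. Of these 10 markers 6 fell in vagina, 7 in footpad, 6 in trachea and 0 in esophagus or oral mucosa. Of 6 blood cell markers Ptprc, Itgam and Cd3e read 3.98 or less in every group, below the level (4.77) under which 40% of all probe sets lay, while Cd14 read 8.60 to 9.79 and Cd68 5.38 to 7.89. Cd68 was the 1 blood marker called lower, in oral mucosa (7.89 to 5.93) and in vagina (6.54 to 5.47). Of 4 endothelial markers 3 lay below 4.77 in every group and Cdh5 reached 5.05, and of 3 melanocyte markers 2 lay below it and Sox10 read 5.29 to 5.75, with 0 calls in either list. The part of these marker shifts, of other rat cells and of any mouse cells left by the sort in the changes below was not tested. In such bulk samples fewer cells of a type and less RNA per cell cannot be told apart.

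**Figure D1:**
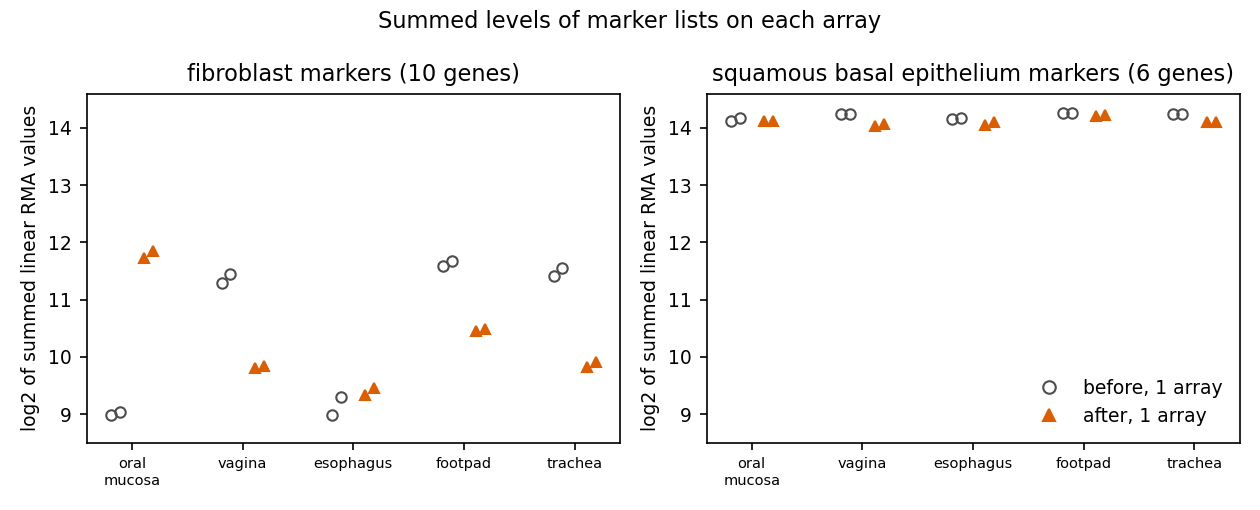
Log2 of the summed linear RMA values of 10 fibroblast markers (left) and 6 squamous basal epithelium markers (right) on each array, by tissue (open circle, before; filled triangle, after). The fibroblast sum lies between 11.28 and 11.68 before in vagina, footpad and trachea and between 9.81 and 10.49 after. In oral mucosa it goes from 8.99 and 9.04 to 11.74 and 11.84, where Vim alone of the 10 rose (6.48 to 11.58). The epithelial sum lies between 14.03 and 14.27, and its largest term in every group is Krt14 (13.05 to 13.33).

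Of the mu-class transferases, which act on many aryl and epoxide electrophiles, Gstm1 changed in all 5 tissues, rising in oral mucosa and trachea and falling in vagina, esophagus and footpad. In oral mucosa it read 8.27 and 8.21 before and 10.17 and 10.26 after, a rise of 1.97 ± 0.11 (SE) with limma's adjusted p 3.16e-08. The trachea arrays read 9.78 and 9.36 before and 11.39 and 11.35 after (1.80 ± 0.11, adjusted p 3e-07). In both tissues each array after lay above each array before. With 2 arrays per stage, such separation, here and below, also occurred without a call. An example is Hmox1 in trachea (−0.11, limma's adjusted p 0.647). Its share over all probe sets was not counted.

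The 3 falls of Gstm1 were each larger in size than its 2 rises, a difference that was not tested. In vagina it went from 11.19 and 11.32 to 7.98 and 8.11, a change of −3.21 ± 0.11 or 9.25-fold (adjusted p 5.53e-10). Footpad cells went from 10.30 and 10.39 to 7.60 and 7.59 (−2.75, adjusted p 5.2e-10), and esophagus cells from 11.91 and 11.94 to 9.60 and 9.67 (−2.29, adjusted p 3.97e-08). No array after reached an array before in these 3 tissues, and only 0.0411% of probe sets in esophagus and 0.0787% in vagina changed by a larger size.

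The order of the tissues by Gstm1 thus differed between the stages. Before transplantation it ran esophagus (11.93), vagina (11.26), footpad (10.35), trachea (9.57) and oral mucosa (8.24). After, trachea (11.37) and oral mucosa (10.21) stood first, followed by esophagus (9.63), vagina (8.05) and footpad (7.59). Neighbours differed by over 2-fold only between trachea and oral mucosa at both stages, and between esophagus and vagina after (1.59 ± 0.11, adjusted p 2.49e-07 over all tissue pairs). The other neighbours were under 2-fold apart. Their adjusted p-values lay between 4.67e-05 and 0.0112.

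Gstm2, whose gene lies next to Gstm1, fell in vagina and esophagus and was under 2-fold in the other 3 tissues. In esophagus it went from 9.40 and 9.26 to 7.82 and 7.93 (−1.45 ± 0.12, adjusted p 4.25e-06), and in vagina from 9.06 and 9.11 to 8.10 and 7.88 (−1.09, adjusted p 1.6e-05). Without the second vagina array after transplantation the vaginal change was −0.98, short of the 2-fold threshold. In footpad, where Gstm1 fell 6.74-fold, Gstm2 read 7.54 and 7.75 before and 8.05 and 7.99 after (0.37, adjusted p 0.024, under 2-fold). In oral mucosa it changed by −0.66 (adjusted p 0.000934, under 2-fold) while Gstm1 rose, and in trachea by 0.22 with a 95% interval from −0.03 to 0.47. After transplantation the trachea mean of 9.23 stood 1.21 ± 0.12 above the next tissue (adjusted p 4.37e-06), and the other 4 tissues lay between 7.88 and 8.02, with no adjusted p of neighbours under 0.8.

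Gstm5, at the far end of the cluster, rose in footpad and trachea and fell in no tissue. The footpad arrays read 7.57 and 7.79 before and 10.72 and 10.85 after, a rise of 3.10 ± 0.14 or 8.59-fold (adjusted p 1.52e-09). In the same cells Gstm1 had the opposite sign. In trachea Gstm5 went from 8.56 and 8.31 to 9.54 and 9.52 (1.09 ± 0.14, adjusted p 0.000188), a change that was 0.96 without the second array before. In vagina it went from 8.00 and 8.44 to 9.16 and 9.27, a change of 1.00 (adjusted p 0.000221) whose fold fell just short of 2. In oral mucosa (0.02) and esophagus (0.14) the arrays of both stages overlapped, with 95% intervals from −0.29 to 0.33 and from −0.17 to 0.44. Before transplantation the 5 tissue means lay between 7.68 and 8.61 and no pair of tissues differed by over 2-fold. After, the footpad mean (10.79) was 1.26 ± 0.14 above that of trachea (9.53, adjusted p 2.16e-05). The mu-class genes are close in sequence, and whether a probe set also reads transcripts of a neighbour was not tested.

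**Figure D2:**
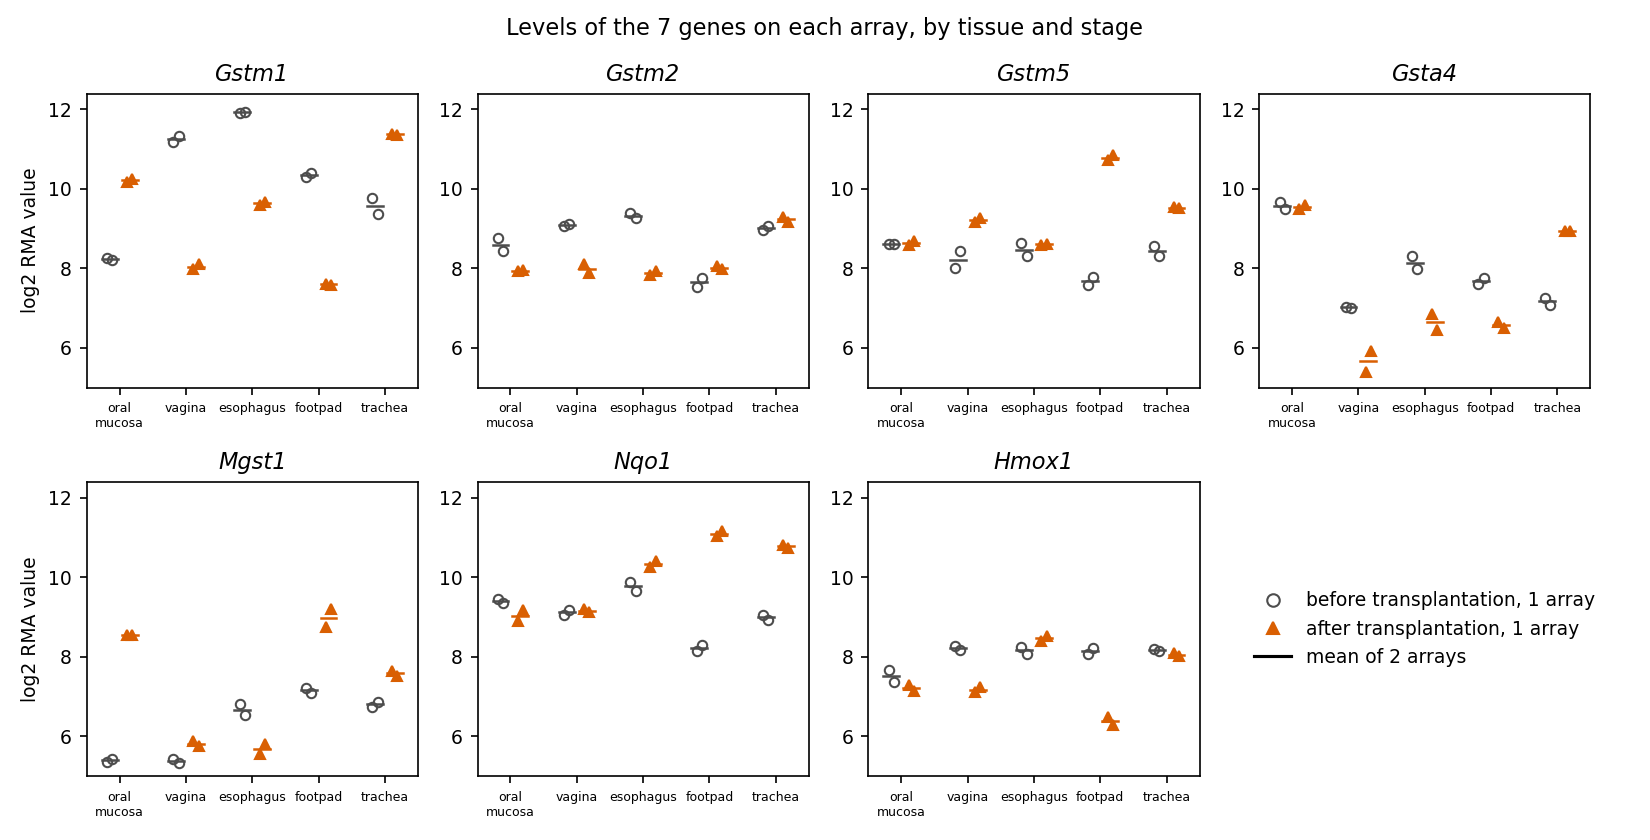
Log2 RMA values of the 7 genes on each of the 20 arrays, by tissue of origin. Arrays before transplantation are open circles, those after are triangles, with a bar at the mean of 2 arrays. Gstm1 falls from 11.26 to 8.05 in vagina but rises from 8.24 to 10.21 in oral mucosa, and Gstm5 and Nqo1 have their highest values in footpad after transplantation (10.79 and 11.10).

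Gsta4, an alpha-class transferase that acts on 4-hydroxynonenal and related aldehydes from oxidized lipids, fell in vagina, esophagus and footpad, rose in trachea and kept the highest level in oral mucosa. In trachea it went from 7.26 and 7.08 to 8.93 and 8.95 (1.77 ± 0.17, adjusted p 1.5e-05). The esophagus arrays went from 8.31 and 7.99 to 6.86 and 6.45 (−1.49, adjusted p 7.09e-05), and those of vagina from 7.04 and 7.01 to 5.39 and 5.93 (−1.36, adjusted p 6.72e-05). Footpad cells went from 7.62 and 7.77 to 6.64 and 6.50 (−1.12 ± 0.17, adjusted p 0.000126). No arrays of the 2 stages overlapped in these 4 tissues.

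In oral mucosa Gsta4 read 9.67 and 9.48 before and 9.50 and 9.58 after, so that the stages overlapped (−0.03, 95% interval −0.40 to 0.33). Oral mucosa stood 1.43 ± 0.17 above the next tissue before transplantation (adjusted p 3.24e-05). After, trachea came within 0.60 of it, and both were over 2-fold above the other 3 tissues (2.29 ± 0.17 between trachea and esophagus, adjusted p 3.89e-07). The second probe set of Gsta4 gave changes of −0.16 in oral mucosa, −1.21 in vagina, −1.26 in esophagus, −1.07 in footpad and 1.67 in trachea. Both probe sets thus gave the same calls in all 5 tissues.

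Mgst1, a transferase of the endoplasmic reticulum and mitochondrial outer membrane that also reduces lipid peroxides, rose in oral mucosa and footpad. In oral mucosa it went from 5.35 and 5.43, among its lowest values anywhere, to 8.55 and 8.54 (3.16 ± 0.14, adjusted p 5.45e-09). That is 8.91-fold, and 0.0821% of probe sets changed by a larger size there. Footpad cells went from 7.23 and 7.10 to 8.75 and 9.20 (1.81, adjusted p 2.18e-07), and in both tissues the stages did not overlap.

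The other 3 tissues stayed under the fold threshold for Mgst1. In esophagus it went from 6.81 and 6.53 to 5.55 and 5.81 (−0.99, adjusted p 0.000354), a 1.99-fold difference. In trachea it changed by 0.78 and in vagina by 0.44. Oral mucosa thus stood with vagina at the low end before (5.39 and 5.38, adjusted p 0.969) and with footpad at the high end after (8.55 and 8.98, adjusted p 0.0491, under 2-fold).

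Nqo1, which reduces quinones straight to hydroquinones, rose in footpad and trachea. The footpad arrays read 8.15 and 8.30 before, the lowest of any tissue, and 11.04 and 11.17 after, the highest (2.88 ± 0.11, 7.37-fold, adjusted p 3.1e-10). In trachea it went from 9.06 and 8.94 to 10.82 and 10.74 (1.78, adjusted p 3e-07). Both tissues are those in which Gstm5 rose.

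In esophagus Nqo1 went from 9.88 and 9.67 to 10.26 and 10.40, a change of 0.56 (adjusted p 0.00393) that stayed under 2-fold. The oral mucosa change was −0.36 (adjusted p 0.0328), also under 2-fold. Vaginal arrays of the 2 stages overlapped around 9.1 to 9.2 (change 0.05, 95% interval −0.19 to 0.29). After transplantation footpad, trachea and esophagus (11.10, 10.78 and 10.33) were set off from vagina and oral mucosa (9.17 and 9.04) by 1.17 ± 0.11 (adjusted p 4.17e-06), whereas before it no neighbours were over 2-fold apart.

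Hmox1, which opens heme to biliverdin, iron and carbon monoxide, fell in footpad and vagina and rose nowhere. Footpad cells went from 8.08 and 8.22 to 6.49 and 6.28 (−1.76 ± 0.12, 3.39-fold, adjusted p 5.24e-08), the opposite sign to Nqo1. In vagina it went from 8.28 and 8.16 to 7.11 and 7.24 (−1.05, adjusted p 2.59e-05). Without the first vagina array before, or the first after, that change was −0.99 or −0.98 and no longer over 2-fold. In oral mucosa, esophagus and trachea the changes were −0.30, 0.31 and −0.11 and did not pass the test. Before transplantation 4 tissues lay between 8.15 and 8.22, with oral mucosa at 7.51. The means after ran from 8.47 in esophagus through 8.06 in trachea, 7.22 in oral mucosa and 7.18 in vagina to 6.39 in footpad, with every pair of neighbours under 2-fold apart.

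**Figure D3:**
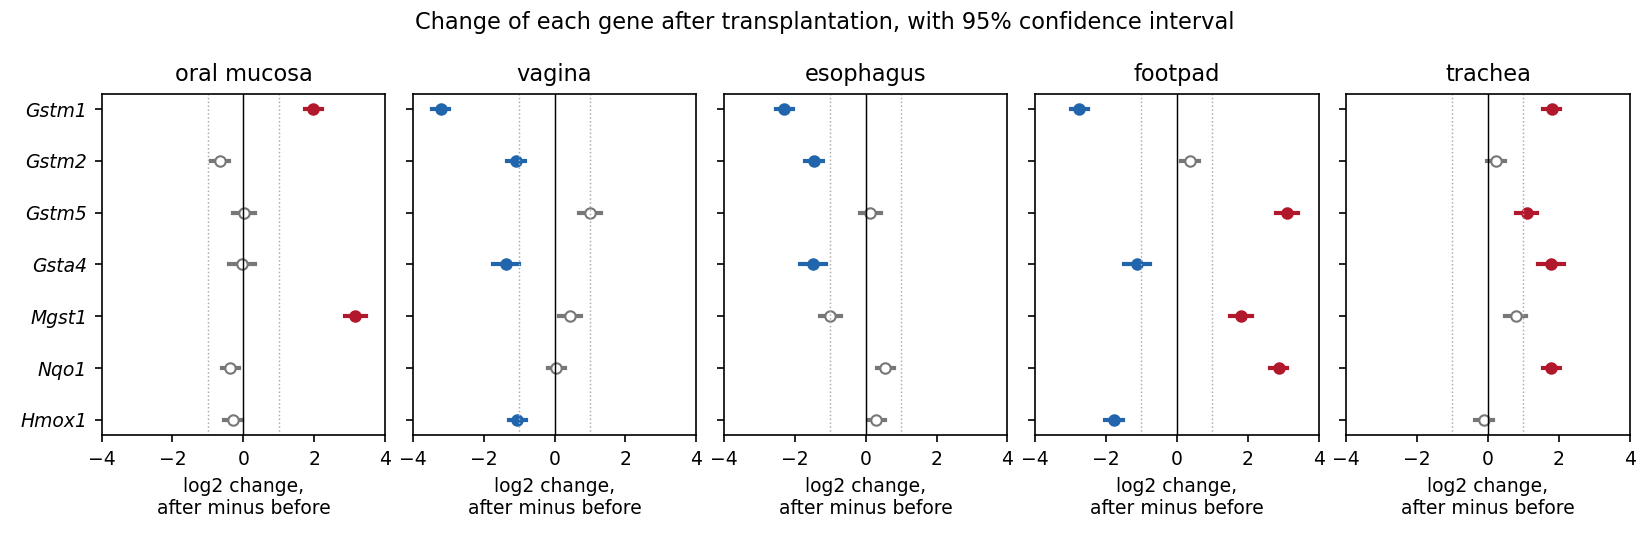
Change of each of the 7 genes after transplantation (log2, after minus before) with its 95% confidence interval, 1 panel per tissue. Filled points passed limma's test with a fold over 2, in red where higher and in blue where lower, and dotted lines mark a 2-fold change. In trachea 4 genes are higher and 0 lower, in vagina 0 higher and 4 lower, and in footpad 3 and 3.

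Counted by tissue, oral mucosa had 2 of the 7 genes higher (Gstm1 and Mgst1) and 0 lower, against 1.50% of all probe sets higher and 2.15% lower. With every array centred on its median the split over all probe sets there went from 438 higher and 628 lower to 349 and 828, and the median change of all probe sets from 0.05 to −0.09. Vagina had 0 higher and 4 lower (Gstm1, Gstm2, Gsta4 and Hmox1), against 0.534% and 1.68%. Esophagus had 0 higher and 3 lower (Gstm1, Gstm2 and Gsta4), against 0.517% and 0.558%. In footpad Gstm5, Mgst1 and Nqo1 were higher and Gstm1, Gsta4 and Hmox1 lower, against 4.28% and 2.64%. Trachea had 4 higher (Gstm1, Gstm5, Gsta4 and Nqo1) and 0 lower, against 0.496% and 0.883%. Of the 35 changes 9 were higher and 10 lower. The median size of the 7 changes was 0.36 in oral mucosa, 1.05 in vagina, 0.99 in esophagus, 1.81 in footpad and 1.09 in trachea, and that of all probe sets 0.15 to 0.23.

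Whether the change depended on the tissue was tested by an F test over the differences of response between the 5 tissues. All 7 genes passed it, against 37.0% of all probe sets. The adjusted p was lowest for Gstm1 (1.46e-10) and highest for Gstm2 (1.96e-06). Averaged over the tissues, with the spread between tissues as the error, 0 of the 7 genes changed at limma's adjusted p under 0.05, and neither did any of the 29215 probe sets (0%). At an unadjusted p under 0.05 it was 1 of the 7, Gstm5 with a mean change of 1.07 ± 0.43 (adjusted p 0.428), and 3273 of all probe sets.

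By count, more differences between tissues passed in these genes after transplantation than before. The range of tissue means narrowed for Gstm2, from 1.68 to 1.35, and hardly moved for Gstm1 (3.69 to 3.78). It widened for the other genes. Before, 5 of the 7 differed among tissues (all but Gstm5 and Hmox1), against 9.05% of probe sets. After, all 7 did, against 11.9%. Of 70 comparisons between 2 tissues (10 pairs for each gene), 23 passed before, against 2.73% over all probe sets, and 39 after, against 3.46%. The difference between these counts was not tested. For Gstm5 and Hmox1 the number of pairs went from 0 to 4 each, and for Nqo1 from 2 to 6. Of the 28 neighbours in the orders by level, 3 differed before, against 0.800% over all probe sets, and 7 after, against 0.792%.

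The rest of the glutathione and oxidant response pathway was read from lists of 102 genes, of which 91 had a probe set of their own and 84 lay outside the 7. Outside the 7, 13 genes were higher and 4 lower in footpad, 3 and 1 in trachea, 1 and 4 in oral mucosa, 1 and 3 in esophagus and 0 and 5 in vagina. As shares of the 84 these were 15.5% and 4.76% in footpad (all probe sets 4.28% and 2.64%), 3.57% and 1.19% in trachea (0.496% and 0.883%), 1.19% and 4.76% in oral mucosa (1.50% and 2.15%), 1.19% and 3.57% in esophagus (0.517% and 0.558%) and 0% and 5.95% in vagina (0.534% and 1.68%). No call was made in any tissue for 62 of the 84. The share of all probe sets called in no tissue was not counted. This count and the like counts below therefore cannot be set against it. The median change of the 84 was 0.19 in footpad, 0.05 in trachea, −0.14 in oral mucosa, −0.03 in esophagus and −0.08 in vagina, beside −0.03 to 0.06 for all probe sets.

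Of 17 transferases measured outside the membrane-bound (Mgst) family, the 4 described above included, 5 were higher and 2 lower in footpad. In trachea 4 were higher, while 4 were lower in vagina, 4 were lower in esophagus and 1 was higher in oral mucosa. These counts are 29.4%, 11.8%, 23.5%, 23.5%, 23.5% and 5.88% of the 17, to be read beside the shares of all probe sets in the same tissues. Gstm1 is among them in all 5 tissues, and Gsta4 in all but oral mucosa. Gstm2 is among them in vagina and esophagus, and Gstm5 in footpad and trachea. Outside these 4 genes the only calls were Gstt2 in trachea and esophagus, Hpgds in vagina, and Gstm7, Gstp1, Gstt2 and Gstk1 in footpad. Hpgds in vagina read 4.73 before and 3.22 after, both below the 4.77 under which 40% of all probe sets lay. Gstt2, a theta-class enzyme, rose from 6.24 to 9.82 in footpad (3.58 ± 0.13, adjusted p 2.09e-10) and by 1.08 in trachea, and fell by 1.11 in esophagus. Among 19 genes of glutathione synthesis, transport and reduction, Ggt1, the surface enzyme that takes extracellular glutathione apart, fell in oral mucosa (−3.10), vagina (−1.72) and esophagus (−1.48). Glrx, a glutaredoxin that removes glutathione from protein thiols, fell in the same 3 tissues (−2.42, −1.25 and −1.14) and rose in footpad (2.01). Gpx2, a glutathione peroxidase of epithelia, rose in footpad (1.19) and trachea (1.03), as Gstm5 and Nqo1 did. Gpx8, a peroxidase of the endoplasmic reticulum, rose in esophagus (1.22) and fell from 9.40 to 6.15 in footpad (−3.25 ± 0.16, adjusted p 3.05e-09).

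Of 14 other targets of the oxidant response, measured beside Nqo1 and Hmox1, 11 were called in no tissue. Ephx1, the microsomal epoxide hydrolase, fell from 9.50 to 6.51 in oral mucosa (−2.99 ± 0.15, adjusted p 1.16e-08) and rose from 6.71 to 10.01 in footpad (3.30, adjusted p 1.27e-09). Aldh3a1, an aldehyde dehydrogenase, rose in oral mucosa (2.36) and footpad (2.91), the tissues in which Mgst1 rose. Among 8 genes of heme and iron handling, of which 6 were called in no tissue, Blvra, the biliverdin reductase that takes the product of heme oxygenase further, fell in footpad (−1.81), vagina (−1.24) and trachea (−1.01). The first 2 of these are the tissues in which Hmox1 fell.

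Of 13 regulators measured, 2 (15.4%, against 4.28% of all probe sets) rose in footpad and no other call was made in any tissue. These were Sqstm1, a KEAP1-binding autophagy receptor (1.08), and the aryl hydrocarbon receptor gene Ahr (2.14), both picked out after their values were seen. Of 4 listed targets of that receptor measured, 2 rose in footpad (50%, against 4.28%), namely Nqo1 and Aldh3a1. The other 2 were called in no tissue. In footpad Cyp1a1 read 3.69 before and 3.79 after and Cyp1b1 3.92 and 3.62, all below 4.77. The activity of the receptor was not tested. Nfe2l2, which encodes NRF2, lay between 10.13 and 10.88 in all groups, with changes from −0.20 in vagina to 0.45 in footpad (adjusted p 0.000458, under 2-fold). Changes of Keap1 lay between −0.14 and 0.32.

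**Figure D4:**
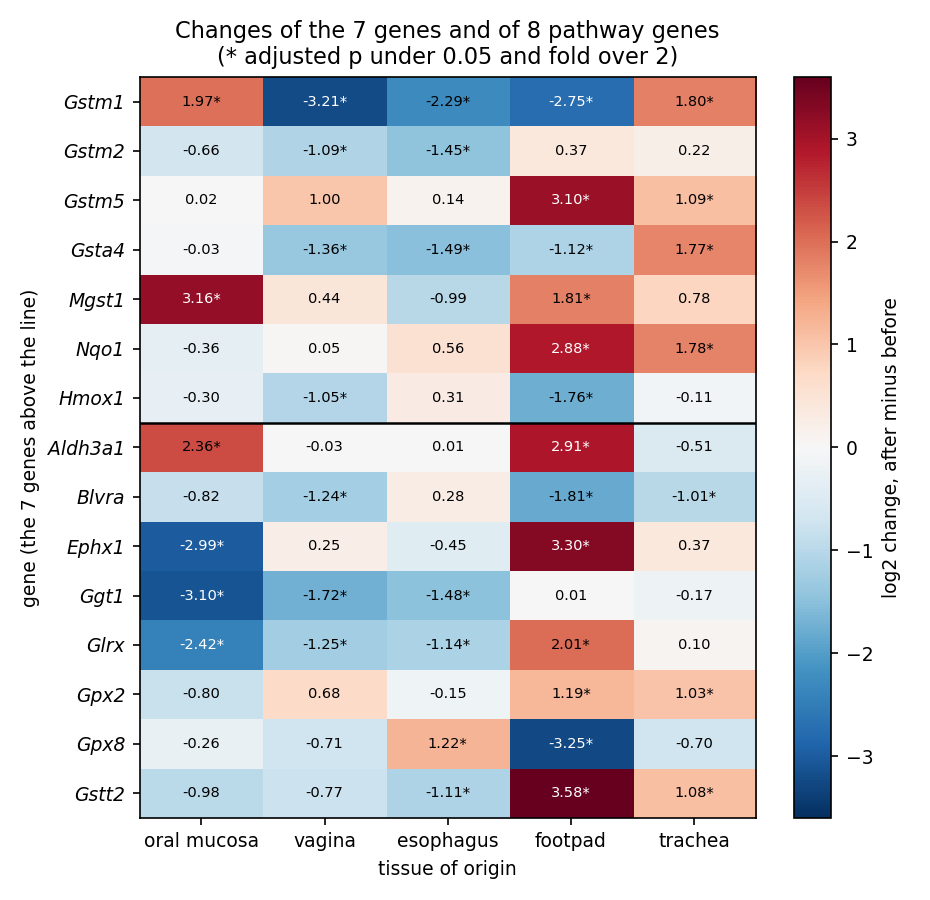
Log2 change after minus before in each tissue for the 7 genes (above the line) and 8 other pathway genes, with a star on changes that passed limma's test and the 2-fold threshold. Footpad holds the highest value (Gstt2, 3.58) and the lowest (Gpx8, −3.25). Gstm1, Gsta4, Ephx1, Glrx, Gpx8 and Gstt2 have starred changes of both signs.

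Across the 10 group means, Gstm5 ran with Nqo1 (Pearson's r 0.815) and against Hmox1 (−0.743), and Gstm1 ran with Hmox1 (0.706). Without the 2 groups farthest from the median these values were 0.536, −0.334 and 0.538. Gstm1 and Gstm2 had r 0.561, and Gstm1 and Gstm5 had −0.506. Without the 2 farthest groups these were 0.376 and −0.134. The remaining 16 pairs lay between −0.549 and 0.522. All genes come from the same 20 arrays, so these values describe the groups and carry no p.

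Among 3383 genes whose group means ranged over more than 2-fold, those most like each of the 7 were Adprh for Gstm1 (r 0.842), B4galnt4 for Gstm2 (0.924), Atp5if1 for Gstm5 (0.962) and 2810025M15Rikl for Gsta4 (0.916). For Mgst1 the nearest was Ephb6 (0.925), for Nqo1 Nudt14 (0.966) and for Hmox1 Zwint (0.929). Next came Mx2 and Ptk2b for Gstm1, Sntb1 and Mecom for Gstm2, Pebp1 and Ier2 for Gstm5, and Scpep1 and Tmem150a for Gsta4. Gbp2 and RT1-T24-4 followed for Mgst1, Dbi and Hscb for Nqo1, and Taf1c and Blvra (0.913) for Hmox1. The highest of 3383 values over 10 points is large by selection.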

How the data were processed

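The authors deposited 1 table of log2 values per probe set and array, made per the labels by RMA (background correction, quantile normalization and median polish) in Affymetrix Expression Console. Software versions, the annotation build and which arrays were normalized together: not given in the sources used here. Quantile normalization makes the distributions of arrays alike, so changes are relative to the array. The distributions of the deposited values were not identical, with array medians from 5.31 to 5.55. The table holds 29215 probe sets and 20 arrays, with values from 1.52 to 14.0 and no detection call, so whether a low value lies above background is unknown, and the number of arrays limits the precision.

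Groups came from the labelled tissue and stage. Of the probe sets, 15310 had 1 symbol, 323 several and 13582 none here. All 10 groups were fitted together with limma 3.58.1 in R 4.3.3 (lmFit and eBayes, 10 residual and 3.64 prior degrees of freedom), with Benjamini-Hochberg adjustment over all probe sets, called at adjusted p under 0.05 and fold over 2, the thresholds of the study. Tissue pairs were adjusted over all 20 contrasts together. The mean response was fitted to group means, blocked by tissue. The steps were tested on simulated data with 200 changed genes. Named were all 7 genes, pathway genes called in 2 or more tissues or with the largest called rise or fall in a tissue, and the 3 most alike genes by Pearson's r. The genes and lists were chosen with earlier results of these data known. Alternatives were the tissue's arrays alone, centring, an intensity trend, array weights, no probe sets among the lowest 40%, the mean of a symbol's probe sets, no fold threshold, each array left out, a replicate block and, added after seeing the data, a fit without footpad. Replicate numbers were checked for pairing.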

Additional observations from a re-analysis of the deposited data

Results flagged for a closer look

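All 7 listed genes were flagged because the change after transplantation differed between the 5 tissues by limma's F test of that difference. The adjusted p-values given next are from this same test and are not separate evidence. The adjusted p was 1.46e-10 for Gstm1, 1.14e-08 for Nqo1, 2.12e-08 for Mgst1, 2.13e-07 for Gstm5, 4.22e-07 for Gsta4, 1.58e-06 for Hmox1 and 1.96e-06 for Gstm2. Gstm1 and Gsta4 had changes past the threshold in both directions, with 1.97 in oral mucosa and −3.21 in vagina for Gstm1, and 1.77 in trachea and −1.49 in esophagus for Gsta4. The same test was passed by 37.0% of all probe sets. The groups had 2 arrays each, too few to look for a single array far from the others.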

How the results depend on the processing

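Of the 19 changes called among the 35, 16 kept direction and call under up to 28 alternatives that keep the fold threshold, and of the 16 not called, 10 kept direction and side. Without the fold threshold 8 of these 16 passed: 4 genes instead of 2 in oral mucosa (5950 of 29215 probe sets), 6 instead of 4 in vagina (5802), 5 instead of 3 in esophagus (3877), 7 instead of 6 in footpad (9205) and 5 instead of 4 in trachea (4407), and 105 tissue pairs instead of 62. With arrays centred on their median 2 small changes turned sign, Gstm5 in oral mucosa (−0.12) and Nqo1 in vagina (−0.021). With 1 array left out, changes near 0 turned sign for Gsta4 in oral mucosa (−0.12 to 0.060 over such fits), Nqo1 in vagina (−0.023 to 0.12), Gstm5 in esophagus (−0.023 to 0.30) and Gstm5 in oral mucosa (−0.037 to 0.080). Calls near the 2-fold threshold were lost for Hmox1 in vagina (−0.99 without the first array before, −0.98 without the first after), Gstm2 in vagina (−0.98 without the second after) and Gstm5 in trachea (0.96 without the second before). Calls were gained for Gstm5 in vagina (1.22 without the second before, 1.05 without the first after) and Mgst1 in esophagus (−1.13 without the second before, −1.12 without the second after). Replicate numbers did not pair the samples (correlations of deviations −0.15 to 0.03), and with the replicate block oral mucosa still had 2 of the 7 genes called and footpad 6, with 2019 probe sets instead of 2022 in footpad. It changed no call of the 7. The fit without footpad arrays was chosen after seeing the data and changed no call in the other tissues.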
